A study of Rattus norvegicus with 10 samples.

Results

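The genes described here are the alpha-crystallins Cryaa and Cryab, the small heat shock protein gene Hspb1 and the heat shock transcription factor gene Hsf4, found by these names in the table of rat lens capsule RNA-seq. They are 4 of the 3334 genes listed, and all 4 were measured in every rat and passed the filter on low counts. The capsule, a basement membrane enclosing the lens, was collected with the lens epithelial cells that adhere to it. A sample was made from both capsules (2 per animal) of a single male Sprague-Dawley rat, 6 weeks old. The Hypothermia Group comprised 5 rats whose isolated lenses stayed in Hibernate-A medium at 4°C for 8 h before the capsules were taken, and the Normal Group comprised 5 rats whose capsules were taken right after death. No group was kept in the medium at body temperature, so cold, isolation and time in the medium cannot be told apart. Bulk RNA from capsules also cannot tell more cells of a type from more RNA per cell.

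Alpha-crystallins are chaperones of the small heat shock protein family that bind unfolding proteins and keep them soluble. Alpha A-crystallin (Cryaa) is largely restricted to the lens, while alpha B-crystallin (Cryab) and Hsp27 (Hspb1) are also made in muscle and many other stressed tissues. Hsf4 is the heat shock transcription factor known for its role in the lens, where it acts during fibre differentiation, and mutations in it cause cataract. Heat shock factors bind DNA at inverted repeats of the letters GAA.

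The 250 bases upstream of the transcription start were examined because the 4 genes were higher together in the Hypothermia Group and because one of them encodes a heat shock factor. Of the 4, Cryaa and Hspb1 matched the RefSeq promoter table (build GRCr8). The letters searched were GAANNTTC and TTCNNGAA, each of which is its own reverse complement, so 1 pass covers both strands. Capitals mark the matches, and each sequence is read 5′ to 3′ on the strand of the gene, ending at the base before the start. The Hspb1 window is chr12:26432302-26432551 on the minus strand and the Cryaa window is chr20:9784661-9784910 on the plus strand, for the more upstream of 2 start sites in the table.
Hspb1: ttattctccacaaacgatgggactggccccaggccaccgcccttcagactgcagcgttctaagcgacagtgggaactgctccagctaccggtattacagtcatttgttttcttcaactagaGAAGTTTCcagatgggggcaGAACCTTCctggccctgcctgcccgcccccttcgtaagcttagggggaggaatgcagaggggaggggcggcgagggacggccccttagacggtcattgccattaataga
Cryaa: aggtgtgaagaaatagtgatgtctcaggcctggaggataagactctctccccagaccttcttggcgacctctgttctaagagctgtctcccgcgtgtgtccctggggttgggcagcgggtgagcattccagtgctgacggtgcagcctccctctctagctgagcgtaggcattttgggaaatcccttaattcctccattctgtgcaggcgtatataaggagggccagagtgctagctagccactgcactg
The Hspb1 window held 2 matches to GAANNTTC, GAAGTTTC from 129 to 122 bases before the start and GAACCTTC from 109 to 102 bases before it, and they do not overlap. The Cryaa window held 0 matches, which says only that these letters are not in that window. Among all 33469 promoter windows of this length 13.5% held a match, and among the 2592 windows of listed genes 9.30% did. The build of these windows differs from that of the deposited table (Rnor_6.0), to which all positions below refer.

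The table was a list selected by its outcome. In a fit over its genes with edgeR, 3221 of the 3222 genes tested had an unadjusted p under 0.05, so that a call for any listed gene was in part fixed by its presence there, and the calls below are given as descriptions. Per rat, the listed genes held 9026144 to 12415121 counts (Hypothermia Group) or 4792595 to 8177803 counts (Normal Group), which are parts of the libraries. Cryaa alone accounted for 2682391 of the 12415121 counts in Hypothermia rat 5 and 501872 of the 4792595 in Normal rat 3. Scaling by these totals thus lowers the crystallin differences in part by construction, and it is no independent check of them. The median log2FoldChange of all tested genes was 0.36 with the authors' size factors.

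All 4 genes had higher mean levels in the Hypothermia Group, by 2.85-fold to 4.53-fold in FPKM. The deposited FPKM is fragments for each kilobase of a gene, scaled between rats with the authors' size factors. Hsf4 had the largest fold of the 4, and Cryab the smallest. All 4 passed the threshold for up-regulated genes used here, an adjusted p under 0.05 with edgeR and a log2FoldChange above 1, which 10.3% of the tested genes passed. An adjusted p under 0.05 in the same direction alone was reached by 52.3% of the tested genes, and in the opposite direction by 20.5%. In 3 of the 4 genes, Cryaa, Cryab and Hsf4, each Hypothermia rat lay above each Normal rat, as in 41.9% of the tested genes. Since the rule for listing used the same contrast, nothing further is read from these counts.

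Cryaa (chr20:10438444-10442187, plus strand, 1171 bases of gene length) had the highest mean FPKM of the listed genes. In the Hypothermia Group its FPKM was 122067, 92577, 179714, 112535 and 184914 in rats 1 to 5, and in the Normal Group it was 71435, 50949, 20489, 30676 and 39681. The groups did not overlap, and the lowest Hypothermia rat (rat 2) lay above the highest Normal rat (rat 1). Rats 3 and 5 of the Hypothermia Group were the highest, and rat 3 of the Normal Group was the lowest. The means were 138361 ± 41551 and 42646 ± 19626 (SD, n = 5 each), a 3.24-fold difference. The log2FoldChange was 1.70 (SE 0.43, edgeR adjusted p = 0.0236), above that of 95.8% of the tested genes. The call was lost when any of 4 rats was left out, with adjusted p of 0.0617 without Hypothermia rat 3, 0.0515 without Hypothermia rat 5, 0.0711 without Normal rat 4 and 0.0689 without Normal rat 5 (edgeR). It was also lost with totals of the listed genes, of which Cryaa is itself a large part (log2FoldChange 0.52, edgeR adjusted p = 0.178). With a replicate block it was lost too (edgeR adjusted p = 0.118).

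Cryab (chr8:55178289-55182545, plus strand, 1248 bases) ranked 7 by mean FPKM among the listed genes. Its FPKM was 25254, 17412, 40574, 21999 and 31038 in Hypothermia rats 1 to 5 and 15372, 11562, 4946, 6901 and 9057 in Normal rats 1 to 5. The groups did not overlap, but the lowest Hypothermia rat was only 1.13 times the highest Normal rat. Hypothermia rat 3 was the highest for Cryab, whereas rat 5 was the highest for the other 3 genes. The means were 27256 ± 8947 and 9568 ± 4074 (SD, n = 5 each), a 2.85-fold difference. The log2FoldChange was 1.51 (SE 0.36, edgeR adjusted p = 0.0186). Without Normal rat 4 or Normal rat 5 the adjusted p was 0.0561 and 0.0527 with edgeR, past the threshold in neither case. The call was also lost with totals of the listed genes, which include the crystallins themselves (log2FoldChange 0.33, edgeR adjusted p = 0.755). With a replicate block it was lost too (edgeR adjusted p = 0.0925). Relative to Actb the log2FoldChange of 0.96 fell below the threshold of 1. In the RefSeq annotation (GRCr8) the gene overlaps Hspb2, and since the strand setting of the counting is not given in the sources used here, reads of the pair may not be separable.

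Hspb1 (chr12:23839399-23841049, minus strand, 879 bases), which encodes Hsp27, lay far below the alpha-crystallins. Its FPKM was 95.2, 99.97, 57.7, 89.9 and 189.6 in Hypothermia rats 1 to 5 and 78.7, 23.8, 15.4, 17.9 and 25.4 in Normal rats 1 to 5. The groups overlapped in 1 pair, since Normal rat 1 was above Hypothermia rat 3, and the other 4 Normal rats lay between 15.4 and 25.4. The means were 106 ± 49.3 and 32.2 ± 26.3 (SD, n = 5 each), a 3.30-fold difference. The log2FoldChange was 1.73 (SE 0.48, edgeR adjusted p = 0.0388). This call was the least stable of the 4. Dropping single rats ended it in 9 of 10 cases, with edgeR adjusted p of 0.0512 to 0.0967, and held only without Normal rat 1, where the log2FoldChange was 2.37 (edgeR adjusted p = 0.00257). It was also lost with each of the other 4 scalings tried, at an edgeR adjusted p of 0.0693 for TMM factors and 0.0561 for median-of-ratios factors.

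Hsf4 (chr19:37226186-37231912, plus strand, 1738 bases), the transcription factor, had the lowest level and the largest relative difference. Its FPKM was 27.5, 23.6, 25.3, 20.1 and 45.7 in Hypothermia rats 1 to 5 and 14.3, 6.02, 1.62, 3.26 and 6.20 in Normal rats 1 to 5. The groups did not overlap, and the lowest Hypothermia rat was 1.41 times the highest Normal rat. Behind these values stood 570 to 984 counts per rat in the Hypothermia Group and 59 to 446 in the Normal Group. The lowest of these, 59 counts in Normal rat 3, has an exact 95% Poisson interval of 44.9 to 76.1 that covers counting error only. The means were 28.4 ± 10.02 and 6.27 ± 4.86 (SD, n = 5 each), a 4.53-fold difference. The log2FoldChange was 2.19 (SE 0.48, edgeR adjusted p = 0.0156), above that of 98.3% of the tested genes. It passed the threshold in all 10 fits that left out 1 rat, between 1.94 and 2.74. In the RefSeq annotation (GRCr8) Hsf4 overlaps Nol3 and Matcap1, so that reads of the 3 genes may not be fully separable.

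**Figure D1:**
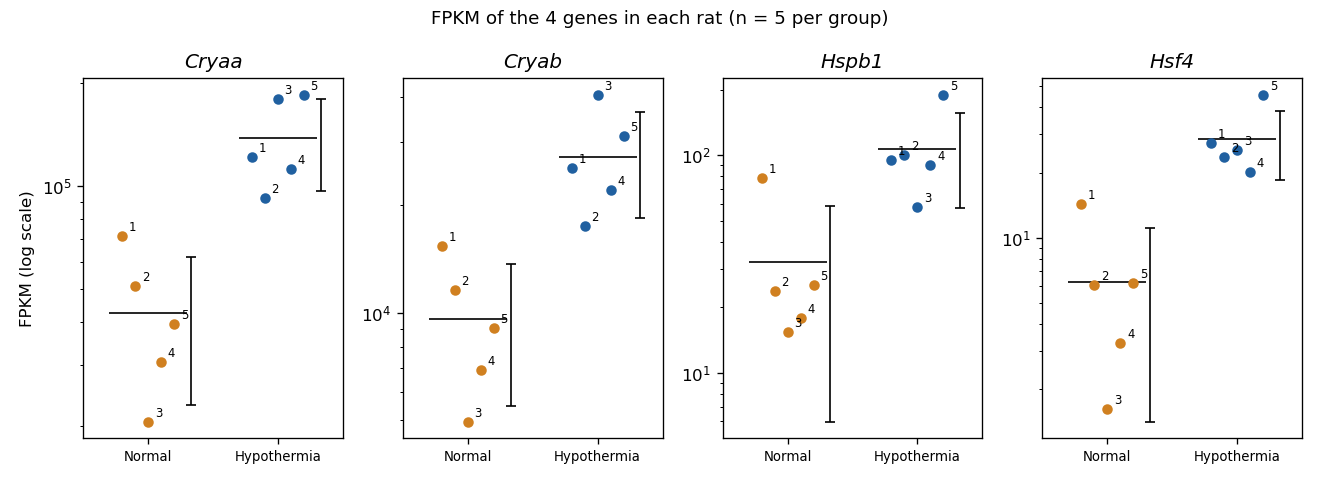
FPKM of Cryaa, Cryab, Hspb1 and Hsf4 (vertical axes, log scale, one per gene) in the Normal Group and the Hypothermia Group. Points are rats with their replicate numbers, horizontal bars are group means and the bars beside them are ± 1 SD (n = 5). In Hspb1 alone the groups overlap, where Normal rat 1 (78.7) is above Hypothermia rat 3 (57.7).

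Per length, the order of the levels was Cryaa, Cryab, Hspb1, Hsf4 in each of the 10 rats. Cryaa was 4.14 to 5.96 times Cryab over the 10 rats, and Cryab at least 164 times Hspb1. Hspb1 was 2.28 to 4.47 times Hsf4 in the Hypothermia Group and 3.95 to 9.52 times Hsf4 in the Normal Group. The rats differed more from one another in the Normal Group than in the Hypothermia Group for each of the 4 genes. From the lowest to the highest rat, FPKM spanned 3.49-fold for Cryaa, 3.11-fold for Cryab, 5.09-fold for Hspb1 and 8.79-fold for Hsf4 in the Normal Group. In the Hypothermia Group these spans were 1.997-fold, 2.33-fold, 3.28-fold and 2.27-fold. This difference in spread was not tested.

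How the 4 genes stood to one another was compared by ratios of counts within a rat, which do not depend on the scaling between rats. In all, 10 ratios were tested with the exact two-sided permutation test over all assignments of the rats, whose smallest possible p is 0.00794. A single ratio at that smallest p would have an adjusted p of 0.0794, so that a ratio could pass only together with others. No ratio passed after adjustment over the 10, and in none did the groups stand apart. Cryaa per Cryab in FPKM was 4.83, 5.32, 4.43, 5.12 and 5.96 in Hypothermia rats 1 to 5 and 4.65, 4.41, 4.14, 4.45 and 4.38 in Normal rats 1 to 5. The 2 alpha-crystallin transcripts thus stayed near a ratio of 4 to 6 in all rats, with 4 of 5 Hypothermia rats above the highest Normal rat. The ratio differed by 0.21 on the log2 scale, Hypothermia minus Normal (exact permutation p = 0.0238, adjusted p = 0.0794), with a 96.8% interval of the shift from 0.01 to 0.44.

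Hsf4 was set against each of the chaperone genes in the same way, and its mean ratio was higher in the Hypothermia Group in all 3 cases without passing the adjusted threshold. For each FPKM of Hsf4 there were 4444, 3923, 7103, 5595 and 4046 FPKM of Cryaa in Hypothermia rats 1 to 5, and 5009, 8458, 12625, 9403 and 6398 in Normal rats 1 to 5. Normal rat 1 lay within the range of the Hypothermia rats, and the other 4 Normal rats were above 4 of the 5 Hypothermia rats. Hsf4 per Cryaa differed by 0.70 on the log2 scale (exact permutation p = 0.0397, adjusted p = 0.0794, interval of the shift -0.16 to 1.48). Hsf4 per Cryab differed by 0.91 (exact permutation p = 0.0397, adjusted p = 0.0794, interval -0.02 to 1.71), and Hsf4 per Hspb1 by 0.57 (exact permutation p = 0.0794, adjusted p = 0.132, interval -0.10 to 1.27), or 0.37 without Normal rat 3.

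No difference in ratio between the alpha-crystallins and Hspb1 was detected, and the intervals were wide. Cryaa per Hspb1 differed by -0.12 on the log2 scale (exact permutation p = 0.794, interval of the shift -0.89 to 0.996), and this sign turned when Hypothermia rat 2 or Normal rat 2 was left out, giving 0.015 and 0.014. It was -0.42 without Hypothermia rat 3, -0.30 without Normal rat 1, -0.066 without Normal rat 4 and -0.0039 without Hypothermia rat 5. Cryab per Hspb1 differed by -0.34 (exact permutation p = 0.452, interval -1.23 to 0.98), and by -0.69 without Hypothermia rat 3, -0.53 without Normal rat 1, -0.16 without Hypothermia rat 5, -0.18 without Hypothermia rat 2 and -0.20 without Normal rat 2. In Hypothermia rat 3 there were 3112 FPKM of Cryaa for each FPKM of Hspb1, while the other 4 Hypothermia rats had 926 to 1282 and the Normal rats had 908 to 2144.

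The beta- and gamma-crystallins, the other structural proteins of the lens fibre, gave a reference within the same rats. Per summed count of the 13 listed beta- and gamma-crystallin genes, Cryaa differed by -0.55 on the log2 scale, Hypothermia minus Normal (exact permutation p = 0.0159, adjusted p = 0.0794, interval of the shift -1.05 to -0.15). The value for Cryab was -0.76 (exact permutation p = 0.0159, adjusted p = 0.0794, interval -1.36 to -0.21). Hspb1 differed by -0.42 (exact permutation p = 0.238, adjusted p = 0.340, interval -1.26 to 0.38) and Hsf4 by 0.15 (exact permutation p = 0.286, adjusted p = 0.357, interval -0.26 to 0.51). Leaving out 1 rat moved Hspb1 to between -0.56 and -0.18, the latter without Hypothermia rat 3 and -0.26 without Normal rat 3. It moved Hsf4 to between 0.08 and 0.23, the former without Hypothermia rat 2 and the latter without Hypothermia rat 3. In FPKM, Cryaa per summed beta- and gamma-crystallin was 0.324 to 0.435 in the Hypothermia Group and 0.414 to 0.764 in the Normal Group. Without Normal rat 1 the adjusted p fell to 0.0476 for 5 ratios (exact permutation test): Cryaa per Cryab, Hsf4 per Cryaa, Hsf4 per Cryab, and Cryaa and Cryab per beta- and gamma-crystallin sum. Leaving out any other single rat gave these 5 ratios an adjusted p of 0.0529 to 0.159 (exact permutation test), so none passed.

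**Figure D2:**
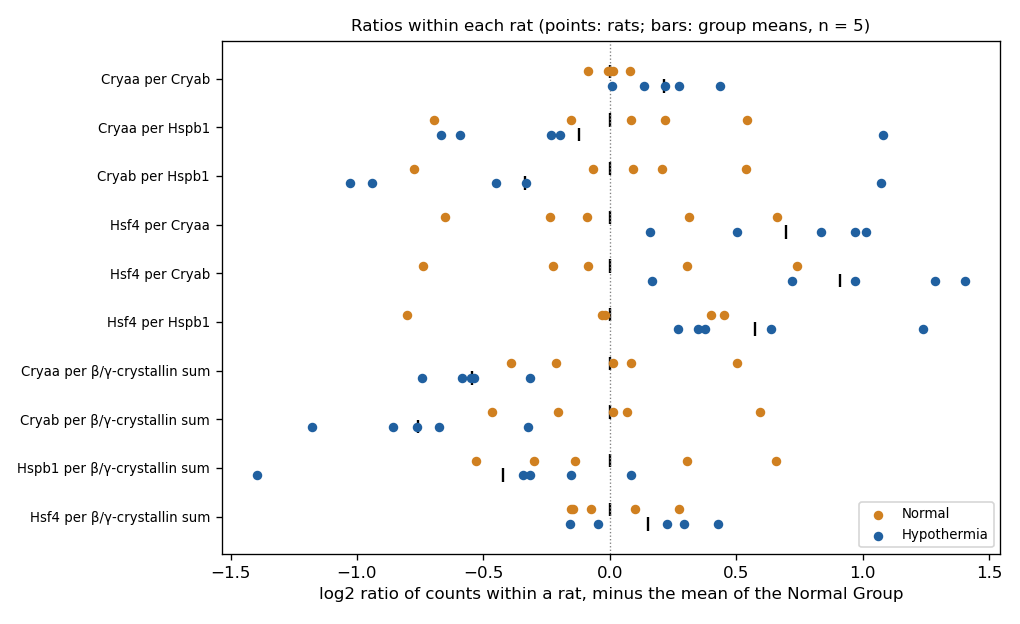
Ratio of counts within each rat, as log2 with the mean of the Normal Group subtracted (horizontal axis), for the 10 ratios compared. Points are rats and short bars group means (n = 5 per group). The groups overlap in each ratio, with Cryaa and Cryab per β/γ-crystallin sum shifted by -0.55 and -0.76 and Hsf4 per Cryab by 0.91.

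To see whether the genes varied together among rats of 1 group, the group means were removed and the 10 rats were correlated on log2(normalised count + 1). The 4 values of a rat share its size factor and its cell composition. Hsf4 varied with Cryaa at r = 0.90 (permutation p = 0.00354, adjusted over 6 pairs 0.00778; rho = 0.88, permutation p = 0.00333, adjusted 0.0100). With Hspb1 the value was r = 0.86 (permutation p = 0.00389, adjusted 0.00778; rho = 0.73, permutation p = 0.0246, adjusted 0.0369). With Cryab it was r = 0.82 (permutation p = 0.0103, adjusted 0.0155; rho = 0.81, permutation p = 0.0203, adjusted 0.0369). Hsf4 deviated the most from its group mean in Normal rats 1 and 3. Without these 2 rats, a check chosen after the data were seen, which narrows the range of Hsf4 and leaves 8 rats, r was 0.72 with Cryaa (permutation p = 0.0722, adjusted 0.144), 0.75 with Hspb1 (permutation p = 0.0542, adjusted 0.144) and 0.55 with Cryab (permutation p = 0.208, adjusted 0.312), so that all 3 stayed positive and none passed. The call with Cryab was also lost without Normal rat 1 alone (r = 0.73, permutation test, adjusted p = 0.0672) or Normal rat 3 alone (r = 0.71, adjusted p = 0.0766). Scaling by the totals of the listed genes gave r = 0.76 for Cryaa (permutation test, adjusted p = 0.134) and 0.47 for Cryab (adjusted p = 0.354), and with counts relative to Actb that for Cryab was 0.73 (adjusted p = 0.0565). The relation with Cryaa passed with TMM factors and relative to Actb, and that with Cryab passed with TMM factors. The relation with Hspb1 passed under all 3 scalings, at r = 0.84 with TMM factors, 0.71 with totals and 0.80 relative to Actb (permutation test, adjusted p = 0.0106, 0.0206 and 0.0110), and without either Normal rat 1 or Normal rat 3 alone (r = 0.71 and 0.89).

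Cryaa and Cryab varied together the most, at r = 0.98 (permutation p = 0.000208, adjusted 0.00125; rho = 0.96, permutation p = 0.000347, adjusted 0.00208) and, without Normal rats 1 and 3, at r = 0.95 (permutation p = 0.00417, adjusted 0.025). Hspb1 varied less closely with them, at r = 0.65 with Cryaa (permutation p = 0.0751, adjusted 0.0901; rho = 0.48, permutation p = 0.193, adjusted 0.232) and r = 0.52 with Cryab (permutation p = 0.183, adjusted 0.183; rho = 0.33, permutation p = 0.392, adjusted 0.392). Without Normal rats 1 and 3 these were 0.22 and -0.055. With the planned choice, by the level before group means were removed, the first was 0.45 without Normal rats 3 and 4 and the second 0.83 without Hypothermia rat 3 and Normal rat 3. Both passed when Hypothermia rat 3 was left out, at 0.87 and 0.84 (permutation test, adjusted p = 0.00542 and 0.0122), while leaving out any other single rat gave no call and values as low as 0.37 and 0.14, without Normal rat 1. In Hypothermia rat 3 Cryaa and Cryab were 0.43 and 0.63 above their group mean on the log2 scale, Hsf4 was at -0.11 and Hspb1 at -0.77.

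**Figure D3:**
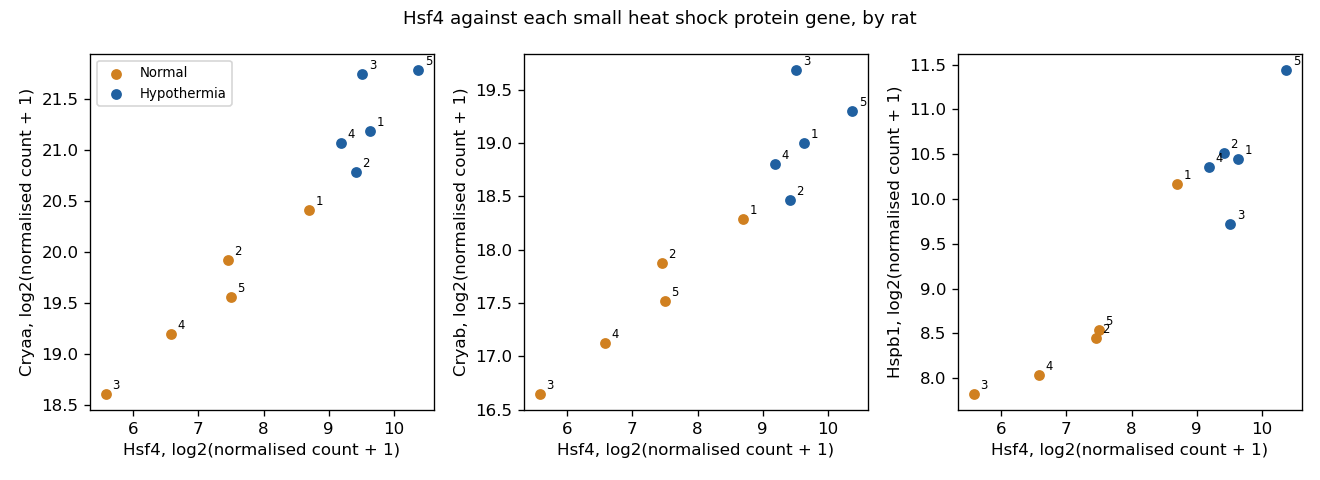
Hsf4 (horizontal axes) against Cryaa, Cryab and Hspb1 (vertical axes), each as log2(normalised count + 1), with rats numbered. The Normal rats spread along a line from rat 3 to rat 1, and Hypothermia rat 3 sits high for Cryaa and Cryab and low for Hspb1.

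In the Normal Group the rats came in nearly the same order for all 4 genes. From low to high the order was 3, 4, 5, 2, 1 for Cryaa and Cryab and 3, 4, 2, 5, 1 for Hspb1 and Hsf4. Normal rat 1 was above its group mean by 0.87 for Cryaa, 0.79 for Cryab, 1.57 for Hspb1 and 1.53 for Hsf4 on the log2 scale, and Normal rat 3 was at -0.93, -0.84, -0.78 and -1.58. The summed beta- and gamma-crystallins deviated the same way in these 2 rats. In the Hypothermia Group the orders differed between genes, being 2, 4, 1, 3, 5 for Cryaa, 2, 4, 1, 5, 3 for Cryab, 3, 4, 1, 2, 5 for Hspb1 and 4, 2, 3, 1, 5 for Hsf4.

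**Figure D4:**
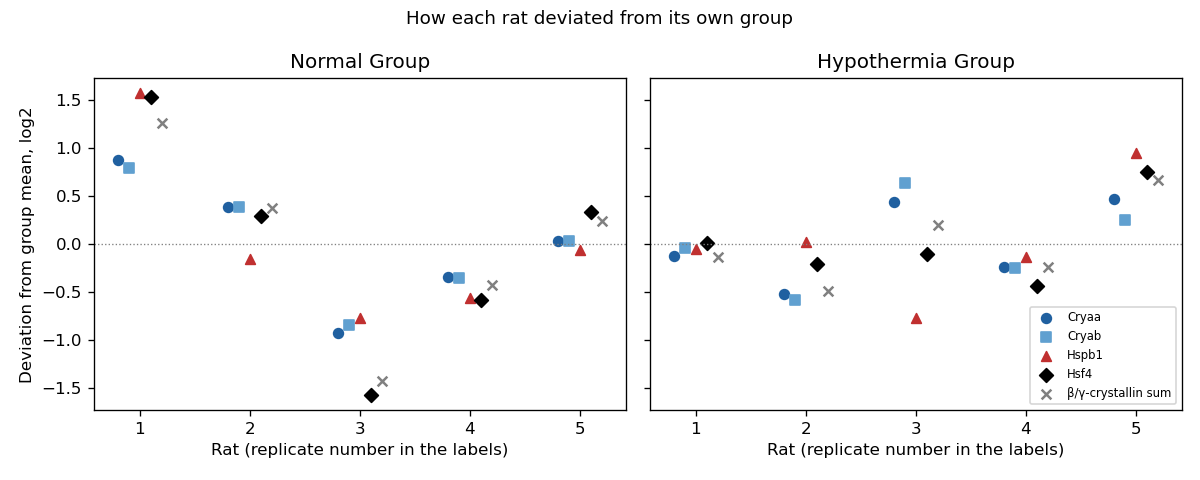
Deviation of each rat from the mean of its own group (vertical axis, log2 of normalised counts) for the 4 genes and the summed beta- and gamma-crystallin counts, by replicate number (horizontal axis). Normal rat 1 is high and Normal rat 3 low in all 5 measures, and Hypothermia rat 3 has Cryab at 0.63 and Hspb1 at -0.77.

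The genes whose variation among rats was most like that of each member, after the group means were removed, are given as a description over 10 rats. For Cryaa they were S100a4, which encodes a calcium-binding protein (r = 0.996), Rnh1 (0.990), the beta-crystallin genes Crybb2 (0.990) and Crybb3 (0.988), and Dbnl (0.987). For Cryab they were Ipo5 (0.992), an importin gene, Sh3kbp1 (0.987), Prmt7 (0.986), Nap1l4 (0.985) and Cul4a (0.985). For Hspb1 the first was Dnajb1, which encodes an Hsp40 co-chaperone (r = 0.980), followed by Lpin1 (0.956), Fam89a (0.945), Lrrc3c (0.943) and Tmod1 (0.942). For Hsf4 they were Fabp5, a fatty acid-binding protein gene (0.989), Ndrg1 (0.988), Lctl (0.986), Mypn (0.985) and Bfsp1, which encodes the fibre cell intermediate filament protein filensin (0.984). The median r over the 3221 other genes was 0.41 for Cryaa, 0.43 for Cryab, 0.19 for Hspb1 and 0.30 for Hsf4. Of these genes, 2.27% were closer to Hsf4 than Cryaa was, 4.47% closer than Hspb1 and 6.40% closer than Cryab. Taken the other way, 6.36% were closer to Cryaa than Hsf4 was, 16.7% closer to Cryab and 1.52% closer to Hspb1. For Hspb1 against the alpha-crystallins, 34.1% were closer to Cryaa and 44.6% closer to Cryab.

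Of 12 small heat shock protein genes looked for, 4 were in the table and the others are not analysed here. Beside the 3 chaperone genes above, Hspb11, which despite its name encodes an intraflagellar transport protein, rose by a log2FoldChange of 0.51 (SE 0.15, edgeR adjusted p = 0.0444), from 131 ± 15.0 to 186 ± 39.9 normalised counts (SD, n = 5 each). The median of the 4 was 1.60. Of 7 heat shock factor genes and their partners, Hsf4 and Hsbp1 were listed. Hsbp1, which encodes a small protein that binds heat shock factor trimers, rose from 2146 ± 253 to 2822 ± 258 normalised counts (SD, n = 5 each), a log2FoldChange of 0.39 (SE 0.10, edgeR adjusted p = 0.0220).

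The list of the heat shock response comprises chaperones and partners that cells raise on protein damage, together with constitutive members such as Hspa8. Of its 24 genes only 5 were listed, so the response as a whole was not measured here. Of the 5, 4 rose, beside 52.3% of all tested genes, and 0 had a log2FoldChange above 1, with a median of 0.50 beside 0.36 for all tested genes. Hspa8, the constitutive cytosolic Hsp70 family member, rose by 0.65 (SE 0.14, edgeR adjusted p = 0.0131) and the mitochondrial chaperonin Hspe1 by 0.74 (SE 0.11, edgeR adjusted p = 0.00459). The Hsp90 co-chaperone Ahsa1 had a log2FoldChange of 0.50 (SE 0.12, edgeR adjusted p = 0.0167) and the polyubiquitin gene Ubb one of 0.45 (SE 0.11, edgeR adjusted p = 0.0166). Dnajb1 had 1576 ± 258 against 1124 ± 327 normalised counts (SD, n = 5 each) and did not pass (log2FoldChange 0.49, SE 0.18, edgeR adjusted p = 0.0969). With TMM factors 2 of the 5 were called higher, with median-of-ratios factors 1 and relative to Actb 0. The sign of the median of this list depended on the scaling, at -0.037 relative to Actb and -0.69 with totals of the listed genes. The median of all tested genes was then -0.22 and -0.87, below that of the list in both cases. With totals 4 of the 5 were called lower. The calls of Hspb11 and Hsbp1 were lost under each of the 4 other scalings. Both had negative values relative to Actb, where neither was called, and with totals, where both were called lower. Shares of all tested genes called at an adjusted p alone under these scalings are not given here. Nothing further is read from these counts.

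Genes known to be lowered or altered in lenses that lack Hsf4 were mostly listed, 11 of 13, and 10 of these rose, beside 52.3% of all tested genes, with a median log2FoldChange of 2.16. With other scalings 8 were called higher for TMM factors, 10 for median-of-ratios factors, 7 relative to Actb and 1 with totals, where 1 was lower. Over all tested genes, the number up-regulated (log2FoldChange also above 1) fell from 331 to 185, 182, 110 and 37 in the same order. The counts of the list lack that added threshold, so they cannot be set against these numbers, and nothing further is read from them. The list overlaps the gamma-crystallins and the beaded filament genes. Bfsp1 and Bfsp2, the beaded filament genes, had log2FoldChanges of 2.16 (SE 0.55, edgeR adjusted p = 0.0258) and 1.53 (SE 0.27, edgeR adjusted p = 0.00636). Hmox1, which encodes the haem-degrading enzyme heme oxygenase 1, was higher by 1.80 (SE 0.40, edgeR adjusted p = 0.0146). The intermediate filament gene Vim, with a log2FoldChange of 0.45 (SE 0.15, edgeR adjusted p = 0.0710), did not pass.

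All 13 listed beta- and gamma-crystallins of the 14 looked for rose, by a log2FoldChange of 1.82 to 2.68 with a median of 2.15, and in all 13 the groups did not overlap. Over all tested genes 52.3% were higher and 41.9% had each Hypothermia rat above each Normal rat. The values of Cryaa, Cryab and Hspb1, at 1.51 to 1.73, lay below this range, and that of Hsf4 at 2.19 lay within it. Lens fibre markers rose in 11 of 12 listed genes of 14, with a median of 1.87, including the aquaporin gene Mip (2.91, SE 0.66, edgeR adjusted p = 0.0167). Their summed normalised counts were 255328 to 552586 in the Hypothermia Group and 36679 to 152476 in the Normal Group. Of 6 transcription factor genes of lens fibres, 3 were listed and all 3 rose, Hsf4 together with Maf (0.64) and Pitx3 (0.34). The crystallins and fibre markers kept a positive median under the 5 scalings, at 1.05 or above and 0.72 or above, but with totals only 8 of the 13 crystallins and 3 of the 12 fibre markers were called higher, and relative to Actb 11 and 9. Of the 3 transcription factor genes 1 was called higher under each of the 4 other scalings, and with totals 2 were called lower. How many of all tested genes were called at an adjusted p alone under these scalings is not given here. The counts under the other scalings are therefore not read further. Of 11 lens epithelium markers, 5 were listed, 0 rose and 2 fell, beside 20.5% of all tested genes that were lower. The 2 were Pax6 (log2FoldChange -0.26, edgeR adjusted p = 0.0498) and Mki67 (-0.57, edgeR adjusted p = 0.0274). The gap junction gene Gja1, the most abundant of the 5, had 15600 ± 2205 against 21063 ± 2637 normalised counts (SD, n = 5 each) and did not pass (edgeR adjusted p = 0.0567). Mab21l1 was the one with a positive log2FoldChange, 0.26, at 4917 ± 735 against 4095 ± 242, and it did not pass either. With TMM factors, median-of-ratios factors and relative to Actb 4 of the 5 were called lower, and with totals 5. These scalings also lowered the median log2FoldChange of all tested genes, to 0.07, 0.05, -0.22 and -0.87. The share of all genes called lower under them is not given here, so nothing further is read from these counts. The sums of the 5 were 25122 to 29164 against 30708 to 36747. The median of these 5 was -0.43. Fibre transcripts were higher in the same samples as the 4 genes, and the part of fibre cells in the results was not tested beyond the ratios to the beta- and gamma-crystallin sum given above.

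**Figure D5:**
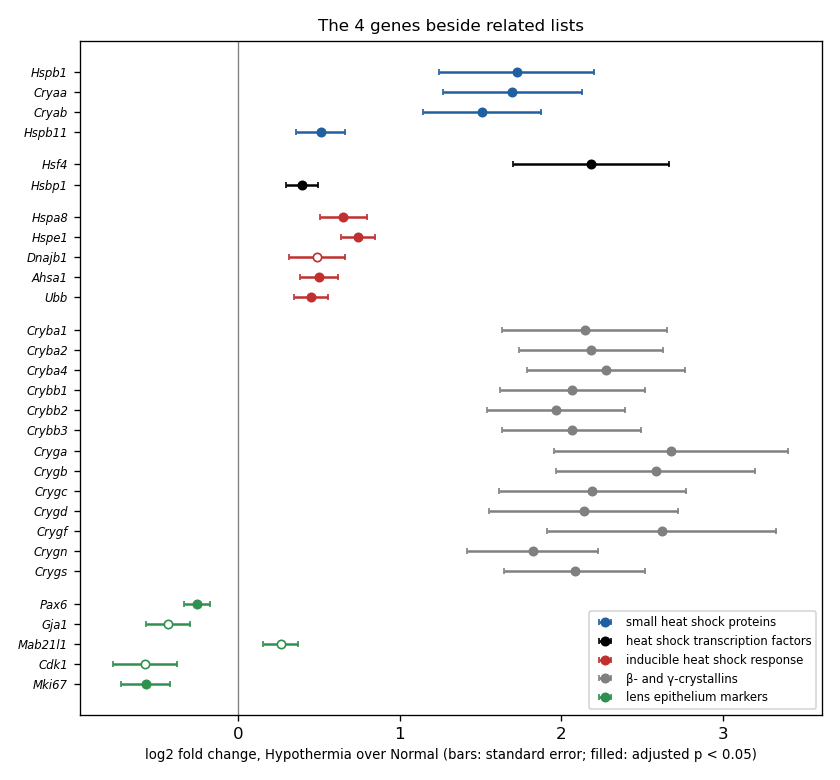
log2FoldChange of the Hypothermia over the Normal Group (horizontal axis, ± SE) for listed genes of 5 groups, in which filled points have an adjusted p under 0.05 with edgeR. Cryaa, Cryab and Hspb1 lie at 1.51 to 1.73, above the listed genes of the heat shock response (0.45 to 0.74) and below the beta- and gamma-crystallins (1.82 to 2.68).

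Summed listed markers of other tissues of the eye were low beside the sums of lens fibre markers given above. In the Normal Group the fibroblast sum given below was nonetheless above Hspb1 (226 to 1151 normalised counts) and Hsf4 (46.9 to 413). Each sum covers only the markers that were listed, and unlisted markers of a tissue may have been abundant. The amount of these tissues therefore cannot be read from the sums. Of 12 genes of the iris, ciliary and retinal pigment epithelium 6 were listed, and their sums were 213 to 455 normalised counts in the Hypothermia Group and 414 to 1705 in the Normal Group. Of the 4 tested, 0 rose and 1 fell, beside 52.3% and 20.5% of all tested genes, with a median log2FoldChange of -1.72. Their defining genes Rpe65 and Tyr, named for their low values after these were seen and not among those tested, had 0 to 8.44 and 0 to 7.14 normalised counts in the Hypothermia rats and 4.58 to 25.9 and 5.57 to 33.3 in the Normal rats. Mfrp and Rlbp1 of the same list were higher, at 36.7 to 239 and 104 to 175 in the Hypothermia rats and 86.7 to 1301 and 163 to 210 in the Normal rats. Of 8 fibroblast genes 3 were listed and 2 fell, beside 20.5% of all tested genes that were lower, with sums of 454 to 931 against 1176 to 2304. Of 9 muscle genes 2 were listed and 1 rose, beside 52.3% of all tested genes that were higher, with sums of 106 to 223 against 67.1 to 286. With totals of the listed genes 0 of these 2 were called higher and 1 was called lower. Of 4 endothelial genes 1 was listed and did not pass, with 135 to 186 against 147 to 352. Under the 4 other scalings the endothelial gene was called lower, and 2 to 5 of the tested iris, ciliary and pigment epithelium genes were called lower. The median of all tested genes was then also lower, between -0.87 and 0.07 beside 0.36, and nothing further is read from these counts. None of the 10 retina and 9 blood markers was listed, and their levels are not analysed here. The part of these tissues in the results was not tested.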

How the data were processed

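Lens capsule RNA of 10 rats was sequenced. Alignment by the authors was to Rnor_6.0 (HISAT2 2.0.5), and reads were counted per gene with featureCounts 1.5.0-p3 (submitters' processing notes). The deposited counts are whole reads per gene without normalization, FPKM as deposited derives from these counts and gene length, and the deposited group means are the authors' mean normalised counts (signal). The authors' fold changes and p-values from DESeq2 1.16.1 were not used.

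Size factors of the authors were solved from their group means by least squares (largest relative error 9.2e-10). The test was the robust quasi-likelihood test of edgeR 4.0.16 (R 4.3.3) with group as the only factor, on the 3222 genes that passed filterByExpr. Benjamini-Hochberg adjustment assumed 17000 genes, about the number expressed in the study, since only changed genes were listed. The test was checked on simulated counts. SE was the log2FoldChange divided by the square root of F. Ratios used count + 1, with exact permutation tests, and intervals are Hodges-Lehmann. Spread is between rats, each with its own library, so differences of animal, dissection and library are not separated. Alternatives were other scalings, DESeq2 1.42.0, other filters and adjustments, pseudocounts, a replicate block and leaving out rats.

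The 4 members, the 14 lists and the tests were chosen with earlier results of these data known. Named are the 4 members, listed genes of the first 3 lists, up to 4 genes of the other lists and, for each member, the 5 named genes with the highest r. The genes of the other lists were not always the most abundant, and Bfsp2, Hmox1, Vim, Rpe65, Tyr, Mfrp and Rlbp1 were chosen after their values were seen. Statistics used numpy 2.4.6 and scipy 1.17.1.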

Additional observations from a re-analysis of the deposited data

Results flagged for a closer look

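In 28 groups of 5 rats, a rat far from the other 4 was found in 4, where chance gives about 1 in 20 independent groups. These 28 share rats and genes, and both ratios below involve Hspb1 in the same rat. For Hspb1 the FPKM of Normal rat 1 was 78.7, far above the other 4 Normal rats at 15.4 to 25.4. For Hsf4 the FPKM of Hypothermia rat 5 was 45.7, above the other 4 at 20.1 to 27.5. On the log2 scale neither of these 2 rats stood as far apart, with a gap of 0.69 and 0.62 of the range of the group. In Hypothermia rat 3 the log2 ratio of counts was 12.02 for Cryaa per Hspb1, far above the others of its group. In the same rat the log2 ratio was -12.58 for Hspb1 per beta- and gamma-crystallin sum, far below the others of its group.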

How the results depend on the processing

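Hsf4 was called in each alternative fit. All 4 were called with DESeq2, the method also used for the listing (adjusted p = 9.6e-07 for Cryaa, 9.1e-06 for Cryab, 0.00738 for Hspb1 and 0.000615 for Hsf4). They were also called without a filter, with adjustment over the tested genes and without the robust option. The 4 genes kept their direction in all fits. The number called was 3 with TMM or median-of-ratios factors, 1 with totals of the listed genes, 2 with counts relative to Actb and 1 to 4 when 1 rat was left out. With totals, which include the crystallins themselves, Cryaa, Cryab and Hspb1 had log2FoldChanges of 0.52, 0.33 and 0.64. The median of all tested genes then moved from 0.36 to -0.87. TMM moved it to 0.07, median-of-ratios factors to 0.05 and Actb to -0.22, while the 4 genes stood 1.15 to 1.96 above the median under these 5 scalings. The counts of genes up and down were 331 and 61 with the authors' size factors, 185 and 200 with TMM, 182 and 214 with median-of-ratios, 37 and 1167 with totals, 110 and 594 with Actb, 403 and 163 with DESeq2, 376 and 147 with adjustment over the tested genes, 359 and 83 without a filter, and 276 and 20 with the replicate block. The labels do not say whether the replicate numbers pair rats. Correlations between same-numbered rats were -0.17 to 0.23, which cannot tell whether such rats were handled together. The replicate block called 2 of the 4 genes, Cryaa and Cryab not passing (edgeR adjusted p = 0.118 and 0.0925). When 1 rat was left out, Cryaa per Cryab ranged from 0.16 to 0.27, Cryaa per Hspb1 from -0.42 to 0.015 (0.014 without Normal rat 2), Hsf4 per Cryaa from 0.53 to 0.86, Hsf4 per Cryab from 0.73 to 1.10, and Cryaa and Cryab per beta- and gamma-crystallin sum from -0.64 to -0.42 and from -0.88 to -0.61. For Hsf4 with Cryaa r was 0.83 to 0.96, and for Hsf4 with Cryab 0.71 to 0.95. Hsf4 with Cryaa was 0.76 with totals, Hsf4 with Cryab 0.47 with totals and 0.73 with Actb, and Cryab with Hspb1 -0.15 with totals. Without Normal rats 1 and 3, r was 0.72 for Hsf4 with Cryaa, 0.55 for Hsf4 with Cryab, 0.75 for Hsf4 with Hspb1 and -0.055 for Cryab with Hspb1. Leaving out the rats with the most distant level of Hsf4 before group means were removed, Normal rats 3 and 4, as first planned, gave 0.74, 0.57 and 0.89 for Hsf4 with Cryaa, Cryab and Hspb1. The listed genes of the heat shock response called higher were 2 with TMM. The cause of these changes was not tested. Depth limits Hsf4 most, at 59 counts in 1 rat, and the total of each library is not known beyond the average that the paper states.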
